A study of Mus musculus with 10 samples.

Results

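Pax6, Emx1, Emx2, Lhx2, Eomes, Tbr1, Otx1 and Otx2 encode transcription factors that give forebrain and pallial cells their identity, and their loci were described here by open chromatin and H3K4me3 in neural stem and progenitor cells (NSPCs) cultured from mouse brain. All 8 genes were taken by name from the mouse annotation. A peak belonged to one of them if it lay in the gene body or within 50 kb of it and its nearest protein-coding transcription start site (TSS) was that gene's. ATAC-seq peaks of all libraries that overlapped or abutted were merged into sites. The 8 genes had 65 of the 108367 sites of the series, and 86039 sites were assigned to some protein-coding gene by the same rule.

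NSPCs were isolated from the brains of C57BL/6 mice at postnatal day 5, and all groups shared Neurobasal A medium with B27 and 20 ng/ml of the growth factor FGF2. Activated NSPCs also received 20 ng/ml of EGF, while quiescent NSPCs had EGF replaced by BMP4 at 25 ng/ml, a signal of the BMP family under which these cells leave the cell cycle. The labels give 4 days in BMP4, and for reactivated NSPCs a return to the activating medium with EGF for 9 to 12 days after it, while the study's methods give a shorter time in BMP4 for ATAC-seq. There were 2 ATAC-seq libraries per state and 1 H3K4me3 ChIP-seq library in each of the quiescent and activated states. Primary cultures of this kind hold progenitors beside stem cells, and the cells were in a dish and not in the brain. The study's methods call the quiescent and activated ATAC-seq replicates biologically independent. Whether the replicates came from separate animals is not given in the labels, so p-values measure the spread between these libraries only.

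The developing pallium, the roof of the forebrain that forms cortex and hippocampus, is patterned by these factors. Pax6, Emx1, Emx2 and Lhx2 act in dividing radial glia: Pax6 and Emx2 form opposing gradients across the cortex, Emx1 marks the dorsal lineage, and Lhx2 selects cortical over hem fate. Eomes (also called Tbr2) marks intermediate progenitors, and Tbr1 marks the postmitotic glutamatergic neurons that follow. Otx2 is required for the anterior brain to form, and its relative Otx1 is used later in cortical progenitors and deep-layer neurons. ATAC-seq finds DNA that the Tn5 transposase can reach, while H3K4me3 marks the nucleosomes around active or poised promoters.

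The sequences under the sites that differed in peak calls between states carry the comparison of quiescence with activation, so those over 1 kb from any TSS are shown first. A site was quiescent-specific with a peak in both quiescent libraries and in neither activated library, and activated-specific the other way round. Each sequence is the 200 bp around the strongest summit on the plus strand of mm10 (GRCm38), in lower case, with the E-box CAGCTG, to which basic helix-loop-helix factors bind, and the SOX motif ACAAAG in capitals. The quiescent-specific sites lie in an intron of Pax6 (chr2:105686876-105687075) and an intron of Lhx2 (chr2:38366219-38366418). The activated-specific ones are intergenic, beyond the 3′ end of Lhx2 (chr2:38395287-38395486) and beyond that of Otx2 (chr14:48625135-48625334).
Pax6 +18.1 kb, quiescent-specific: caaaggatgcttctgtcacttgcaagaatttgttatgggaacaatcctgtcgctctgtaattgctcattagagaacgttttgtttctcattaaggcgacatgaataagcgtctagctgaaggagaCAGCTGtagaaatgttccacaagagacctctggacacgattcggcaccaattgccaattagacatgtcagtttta
Lhx2 +27.0 kb, quiescent-specific: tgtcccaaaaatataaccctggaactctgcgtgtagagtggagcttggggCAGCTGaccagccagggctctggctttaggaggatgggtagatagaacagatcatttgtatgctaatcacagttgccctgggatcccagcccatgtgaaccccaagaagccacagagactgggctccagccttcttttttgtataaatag
Lhx2 +56.1 kb, activated-specific: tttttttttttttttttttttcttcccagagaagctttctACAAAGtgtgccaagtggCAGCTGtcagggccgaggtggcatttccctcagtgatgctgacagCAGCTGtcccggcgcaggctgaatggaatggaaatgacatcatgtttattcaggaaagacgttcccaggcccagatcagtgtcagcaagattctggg
Otx2 +48.6 kb, activated-specific: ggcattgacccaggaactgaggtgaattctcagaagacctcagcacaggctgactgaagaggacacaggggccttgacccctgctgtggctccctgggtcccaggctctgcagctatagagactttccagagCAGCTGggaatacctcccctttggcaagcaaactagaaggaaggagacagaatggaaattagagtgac

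All 4 of these windows held CAGCTG, and the Lhx2 window at +56.1 kb also held ACAAAG. Over all 65 sites of the 8 genes, 11 windows held CAGCTG on either strand (16.9%), against 21.2% of all assigned sites. The SOX motif was in 5 windows (7.69% against 18.5%), the AP-1 motif TGANTCA in 3 (4.62% against 7.13%) and the homeobox motif TAATTA in 2 (3.08% against 3.20%). The OTX motif TAATCC (4.43% of all assigned sites), the T-box motif GGTGTGA (2.45%) and the paired NFI motif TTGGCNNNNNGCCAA (0.103%) were in none of the 65. CAGCTG reads the same on both strands, and no motif searched contains another. Matches to such letters are a description of the sequence and not sites of binding. The 4 sites were few and were picked by their peak calls, so the share with an E-box has no test.

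A further pair of windows is shown because it holds the site with the highest fold enrichment and a site with a large rise in reactivated NSPCs. The first lies 36.2 kb upstream of the 5′ end of Otx2, in an intron of the antisense transcript Otx2os1 (chr14:48709886-48710085), and holds none of the 7 motifs. The other lies 14.7 kb upstream of Otx1, in an intron of the neighbouring gene Ehbp1 (chr11:22017542-22017741), with TAATTA and ACAAAG in capitals.
Otx2 -36.2 kb: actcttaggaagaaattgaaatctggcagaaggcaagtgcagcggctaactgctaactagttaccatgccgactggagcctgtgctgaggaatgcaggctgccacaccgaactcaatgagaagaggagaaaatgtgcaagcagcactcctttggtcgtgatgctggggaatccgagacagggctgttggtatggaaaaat
Otx1 -14.7 kb: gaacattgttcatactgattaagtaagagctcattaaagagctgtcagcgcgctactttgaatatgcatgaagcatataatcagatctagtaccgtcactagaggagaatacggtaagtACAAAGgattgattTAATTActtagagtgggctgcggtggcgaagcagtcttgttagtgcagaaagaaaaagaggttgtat

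The depth and quality of the libraries bear on every count that follows. The ATAC-seq lists held 47037 to 60355 peaks in quiescent and activated NSPCs and 106270 and 106830 in reactivated NSPCs. The read pileup behind each peak and its background could be recovered from the fold enrichment and p of each list. The genome-wide background was 12.1 reads in quiescent replicate 2 and between 6.01 and 6.61 in the other 5 libraries. The lowest pileup called was 25 in the former and 16 or 17 in the others, and a site without a peak had a pileup too low to be called, not a pileup of 0. At the 23116 sites with a peak in all 6 libraries, the median log2 fold enrichment was 3.38 and 3.43 in reactivated NSPCs, against 2.48 to 2.89 in the other 4 libraries. Of 8 NSPC marker genes, 7 had a promoter peak in all 6 lists, as did 2 of 6 neuronal, 1 of 4 fibroblast and 0 of 4 oligodendrocyte, microglial and endothelial markers each. The endothelial markers had a promoter peak in no ATAC-seq list. The share of all protein-coding genes with a promoter peak in all 6 lists was not computed. By H3K4me3, promoter peaks were at 8 of 8 NSPC, 5 of 6 neuronal and 2 of 4 fibroblast markers in both states. They were at 1 of 4 oligodendrocyte markers and at 0 of 4 microglial and endothelial markers each.

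Open chromatin near the 8 genes was about as frequent in quiescent as in activated NSPCs and more frequent in reactivated NSPCs, where the lists are longer. Of the 65 sites, 19 and 24 had a peak in the quiescent libraries, 26 and 23 in the activated and 45 and 47 in the reactivated ones. The quiescent and activated ranges overlapped, and both reactivated libraries lay above the other 4. Sites called in both replicates, termed open from here on, numbered 15 in quiescent NSPCs (23.1%, against 33.4% of all assigned sites), 15 in activated NSPCs (23.1%, against 31.2%) and 39 in reactivated NSPCs (60%, against 63%). With every list limited to its 47037 strongest peaks, the counts were 14, 11 and 14 of 42 sites (33.3%, 26.2% and 33.3%, against 50.3%, 49.3% and 52.6% of all assigned sites), so the excess in reactivated NSPCs was not seen in lists of equal length. No test was made, since an exact permutation test of 2 libraries against 2 cannot give a two-sided p below 0.33.

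In the deposited lists, the share of these sites on which replicates matched was the lowest in activated and the highest in reactivated NSPCs, with no test made. Of the sites called in either replicate, both had a peak at 15 of 28 in quiescent NSPCs (53.6%), 15 of 34 in activated NSPCs (44.1%) and 39 of 53 in reactivated NSPCs (73.6%). Over all assigned sites these shares were 63.8%, 67.4% and 70.5%. With lists of equal length the shares were 70%, 34.4% and 63.6% (68.7%, 69% and 76.5% over all assigned sites). The lowest was still in activated NSPCs, but the highest was then in quiescent NSPCs. A peak in a single library alone was found at 22 of the 65 sites (33.8%, against 29.7%), 11 sites had a peak in all 6 libraries (16.9%, against 23.6%), and 21 sites were promoter sites, within 1 kb of a protein-coding TSS (32.3%, against 24.2%). Of the 21 promoter sites, 33.3% were open in quiescent (57.9% of all promoter sites), 38.1% in activated (59%) and 76.2% in reactivated NSPCs (81.6%). Several of them are neighbours at 1 TSS, so they are not independent of each other, and these shares were not tested.

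**Figure D1:**
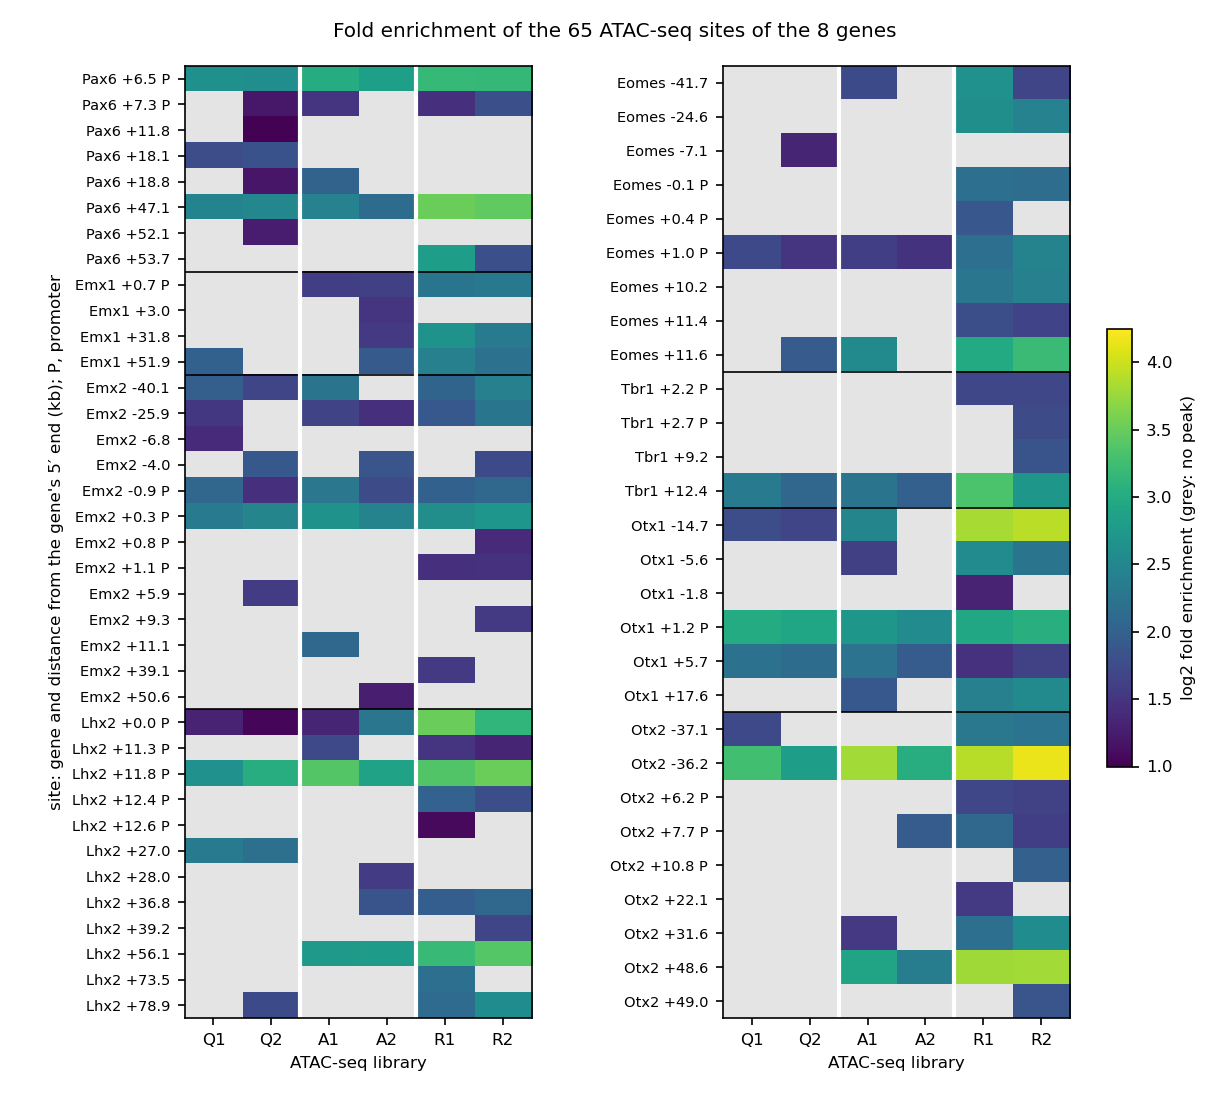
log2 fold enrichment of each of the 65 sites (rows, named by gene and distance in kb from the gene's 5′ end along its strand; P marks promoter sites) in the quiescent (Q1, Q2), activated (A1, A2) and reactivated (R1, R2) ATAC-seq libraries, with grey where no peak was called. The reactivated columns are the fullest, with 45 and 47 sites, and the Otx2 site at -36.2 kb has the highest value, 17.84-fold in R2.

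Both replicates differed in peak calls between quiescence and activation at 5 of the 65 sites, with shares near those of all assigned sites. The 2 quiescent-specific sites made up 3.08% of the 65 (5.82% of all assigned sites) and the 3 activated-specific sites 4.62% (4.02%). All 3 activated-specific sites were open in reactivated NSPCs, as were 92.4% of the activated-specific sites of the genome. Neither of the 2 quiescent-specific sites was, against 57% of the quiescent-specific sites of the genome. The counts depended on the rule. If 1 library was enough for a state, with none in the other, there were 9 quiescent-specific and 15 activated-specific sites. The shares of all assigned sites under that looser rule were not computed.

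**Figure D2:**
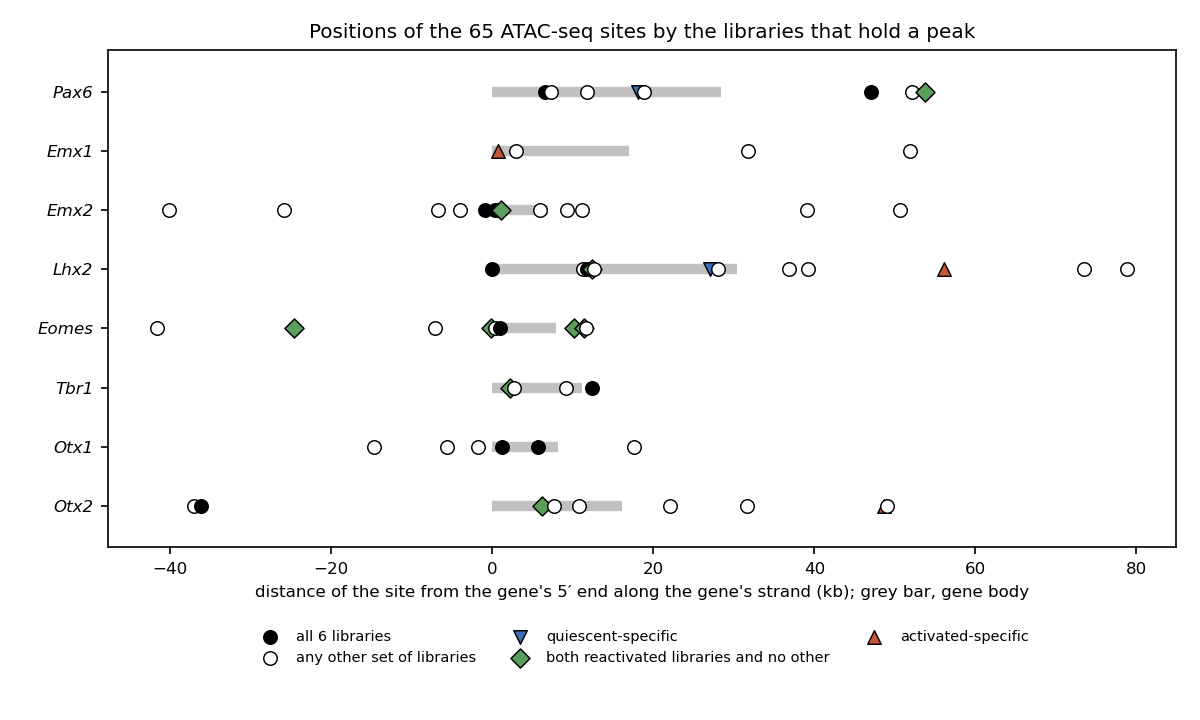
Position of each site along its gene (x axis, kb from the gene's 5′ end along the strand; grey bar, gene body), marked by the libraries that hold a peak. The 11 sites with a peak in all 6 libraries (black) lie at 7 of the 8 genes and none at Emx1, and 4 of the 9 sites with a peak in both reactivated libraries and no other (green) lie at Eomes.

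Among the progenitor factors, Pax6 had 8 sites, of which 3 were open in quiescent, 2 in activated and 4 in reactivated NSPCs. Its promoter site (chr2:105674995-105675732) covered the cluster of internal TSSs 6.5 kb from the 5′ end of the gene. Fold enrichment there was 6.21 and 6.01 under quiescence, 8.08 and 7.16 under activation and 9.07 and 8.94 after reactivation. The libraries of the 3 states did not overlap and lay in that order. The median shared site was also higher in reactivated NSPCs, by more than this promoter, and relative to it limma gave a log2 difference of -0.31 against quiescent (adjusted p = 0.20) and -0.41 against activated NSPCs (adjusted p = 0.12). The pileup at this promoter was 66, 99, 125, 81, 258 and 245 reads in the same order of libraries, and the local background went up with it, from 9.79 and 15.6 in quiescent to 27.6 and 26.5 reads in reactivated NSPCs. No library had a peak within 1 kb of the outermost TSSs of Pax6, at its 5′ end. A weaker promoter site at +7.3 kb had a peak in 1 quiescent (2.31), 1 activated (2.84) and both reactivated libraries (2.70 and 3.46).

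Distal Pax6 sites behaved in different ways. The quiescent-specific site at +18.1 kb (chr2:105686814-105687147), in an intron, had fold enrichments of 3.42 and 3.52 on pileups of 25 and 45 reads. It had no peak in the other 4 libraries. The site at +47.1 kb (chr2:105715311-105716122), in an intron of Elp4, the downstream neighbour whose introns are known to hold Pax6 enhancers, had a peak in every library. Fold enrichment there was 5.52 and 5.66 under quiescence, 5.44 and 4.42 under activation and 11.5 and 11 after reactivation, so both reactivated libraries lay above the others and both activated libraries just below both quiescent ones. Also in an intron of Elp4, the site at +53.7 kb had a peak in the reactivated libraries alone (7.07 and 3.46).

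Emx1, which marks the dorsal telencephalic lineage, was the progenitor factor with the fewest sites, 4, and none was open in quiescent NSPCs. Its promoter site (chr6:85187569-85188354) was activated-specific. Fold enrichment was 3.05 and 3.07 under activation and 4.82 and 4.96 after reactivation, with no peak in either quiescent library. The activated pileups, 22 and 22 reads, were close to the lowest that were called. A site at +3.0 kb in an intron had a peak in activated replicate 2 alone. The remaining sites, at +31.8 and +51.9 kb, lie in introns of Sfxn5 and were open in reactivated NSPCs at 4.65- to 6.28-fold.

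Emx2, which favours caudal and medial cortical identity and hippocampal growth, had the most sites, 13, but 7 of them had a peak in 1 library only. Its main promoter site (chr19:59457931-59458812) was open in every state, at 5.05 and 5.58 under quiescence, 6.32 and 5.48 under activation and 6.09 and 6.52 after reactivation. The activated range overlapped both others, and both reactivated libraries lay above both quiescent ones. The promoter site at -0.9 kb, in an intron of the divergent transcript Emx2os, gave 4.22 and 2.73, then 4.89 and 3.38, then 4.01 and 4.26, again with overlap of all states. Promoter sites further into the gene had peaks in reactivated libraries only, at +1.1 kb in both (2.74 and 2.76) and at +0.8 kb in 1 (2.64). Upstream sites at -40.1 and -25.9 kb had a peak in 5 of the 6 libraries each, at 2.71- to 5.32-fold.

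Lhx2 had 12 sites and the most varied set of calls. The site at its 5′ end (chr2:38339045-38339925) had fold enrichments of 2.50 and 2.06 under quiescence, 2.52 and 4.85 under activation and 11.4 and 8.81 after reactivation. Activated replicate 2 lay above the quiescent libraries and activated replicate 1 beside them, while both reactivated libraries stood clear of the rest. The pileup rose from 18 and 26 reads in quiescent to 114 and 80 reads in reactivated NSPCs. The promoter site at +11.8 kb (chr2:38350799-38351476), at an internal TSS, was strong in every library, with 6.27 and 8.11 under quiescence, 10.4 and 7.32 under activation and 10.3 and 11.5 after reactivation. Sites beside it were found in reactivated NSPCs alone at +12.4 kb (4.05 and 3.45) and in reactivated replicate 1 at +12.6 kb (2.12), and the one at +11.3 kb had a peak in activated replicate 1 (3.30) and both reactivated libraries (2.84 and 2.53).

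Lhx2 was the only one of the 8 genes with both a quiescent-specific and an activated-specific site. The quiescent-specific site at +27.0 kb (chr2:38366124-38366527), in an intron, had fold enrichments of 5.00 and 4.59, on pileups of 37 and 59 reads, and no peak in activated or reactivated NSPCs. The activated-specific site at +56.1 kb (chr2:38395134-38395719) had 6.71 and 6.87 under activation and 9.23 and 10.5 after reactivation. Its pileups, 52 and 53 reads under activation and 78 and 80 after reactivation, were well above the 17 and 25 reads at which a peak was called in the quiescent libraries.

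Eomes, the factor of intermediate progenitors, had 9 sites, 1 open in quiescent, 1 in activated and 7 in reactivated NSPCs. That 1 site was the same in all states, the promoter site at +1.0 kb (chr9:118478703-118479382), with fold enrichments of 3.29 and 2.83, 3.05 and 2.79, and 4.55 and 5.49. The quiescent and activated libraries overlapped there, and both reactivated libraries were higher. Another 4 sites had a peak in both reactivated libraries and no other, the most of any of the 8 genes. They were the promoter site at -0.1 kb (4.55 and 4.46) and those at -24.6 kb (6.14 and 5.45), +10.2 kb (4.84 and 5.32) and +11.4 kb (3.44 and 3.15). The remaining promoter site at +0.4 kb had a peak in reactivated replicate 1 alone. In all, 9 sites of the 8 genes had this pattern (13.8%, against 14.6% of all assigned sites).

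Tbr1, the marker of early-born glutamatergic neurons, had no promoter peak in quiescent or activated NSPCs. Its promoter sites were called in reactivated NSPCs alone, at +2.2 kb in both libraries (3.24 and 3.23, pileups 24 and 24) and at +2.7 kb in replicate 2 (3.34). They ranked low in their lists, at a mean percentile of 17.5 for the site at +2.2 kb. By contrast, a site beyond its 3′ end at +12.4 kb (chr2:61815041-61815985) had a peak in every library, with 5.13 and 4.203 under quiescence, 4.77 and 3.99 under activation and 10.04 and 6.57 after reactivation. Its GC content of 76.5% was far above the median of distal sites (54% for the 8 genes and 51.5% for all).

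Of the anterior factors, Otx1 had 6 sites and an open promoter in every state. The promoter site at +1.2 kb (chr11:22001401-22002308) had fold enrichments of 7.99 and 7.60 under quiescence, 6.62 and 5.94 under activation and 7.68 and 8.24 after reactivation, with both activated libraries the lowest. An intronic site at +5.7 kb (chr11:21996613-21997352) had 4.64 and 4.43, 4.70 and 3.85, and 2.76 and 3.12, with both reactivated libraries below the rest. The upstream site at -14.7 kb, whose sequence is given above, went the other way, from 3.42 and 3.21 in quiescent to 14.1 and 15.0 in reactivated NSPCs, with 5.57 in activated replicate 1 and no peak in replicate 2. Sites at -5.6 and +17.6 kb had a peak in activated replicate 1 and in both reactivated libraries, at 3.06 to 5.95.

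Otx2 had no promoter peak in quiescent NSPCs. Of its 3 promoter sites, the one at +6.2 kb was called in both reactivated libraries alone (3.22 and 3.10), that at +7.7 kb in activated replicate 2 (3.85) and both reactivated libraries (4.28 and 3.05), and that at +10.8 kb in reactivated replicate 2 (4.00). The site of the 8 genes with the highest mean percentile by fold enrichment was distal, at -36.2 kb (chr14:48709441-48710261), with 9.60 and 7.03 under quiescence, 13.9 and 8.13 under activation and 14.9 and 17.8 after reactivation. Its percentile among all peaks of a library averaged 92.4 over the 6 lists. In quiescent replicate 2, Lhx2 +11.8 kb (8.11) and Otx1 +1.2 kb (7.60) had a higher fold enrichment, and by pileup Lhx2 +11.8 kb was higher in 5 of the 6 libraries. The activated-specific site at +48.6 kb (chr14:48625037-48625681) had 7.43 and 5.13 under activation and 13.8 and 13.9 after reactivation, and the quiescent libraries had no peak there.

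By gene, promoter peaks were present at 5 of the 8 genes in each quiescent library, at 6 and 7 in the activated libraries and at all 8 in both reactivated libraries. Over the 21853 protein-coding genes the shares were 56.3% and 57.6%, 58.1% and 56.3%, and 65.6% and 65.4%. In the same order, neuronal markers had 2, 2, 3, 2, 4 and 4 of 6 and fibroblast markers 1, 2, 2, 2, 3 and 3 of 4. NSPC markers had 8, 8, 7, 7, 8 and 8 of 8, and oligodendrocyte, microglial and endothelial markers at most 1 of 4 in any library. Emx1, Tbr1 and Otx2 lacked a promoter peak in both quiescent libraries, Tbr1 in both activated libraries and Otx2 in activated replicate 1.

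Sites with a peak in every library were compared by fold enrichment. Each library was centred on its median over the 23116 such sites, so a difference is relative to the typical shared site, and the sites of the 8 genes were 11. For activated against quiescent NSPCs, limma with Benjamini-Hochberg adjustment called 0 of the 11, against 13.4% of all sites (6.35% higher and 7.05% lower), and 1 had an unadjusted p under 0.05. That was the Otx1 promoter at +1.2 kb, lower by a log2 difference of -0.54 (SE 0.19, adjusted p = 0.068). The largest differences at the other genes were -0.41 at Pax6 +47.1 kb, 0.40 at the 5′ end of Lhx2, -0.31 at Tbr1 +12.4 kb, -0.29 at Eomes +1.0 kb, 0.15 at Otx2 -36.2 kb and -0.073 at Emx2 +0.3 kb, with adjusted p from 0.19 to 0.87. The 95% intervals of all 11 lay between -0.93 and 1.02 (log2), and the widest, at the 5′ end of Lhx2, included a 2-fold change. Without activated replicate 1 that site passed the threshold (1.02, adjusted p = 0.027). Without quiescent replicate 1, the difference at Pax6 +47.1 kb was -0.84 (adjusted p = 0.056). In every fit without a library, its state had 1 library left, so the spread came from the other states. No Emx1 site had a peak in all 6 libraries, so none was fitted.

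For reactivated against quiescent NSPCs, limma called 4 of the 11 sites, 1 higher (11.5% of all sites were) and 3 lower (25.7%). The 5′ end of Lhx2 was higher by 1.27 on the log2 scale (SE 0.30, adjusted p = 0.0022), a 2.41-fold difference. The Otx1 sites at +5.7 kb (-1.50, SE 0.23, adjusted p = 4.63e-05) and +1.2 kb (-0.84, SE 0.19, adjusted p = 0.0018) and the Emx2 promoter (-0.63, SE 0.22, adjusted p = 0.029) were lower relative to the median shared site. Without centring, the sign turned at the Emx2 promoter (0.25, adjusted p = 0.35) and Otx1 +1.2 kb (0.030, adjusted p = 0.91), while Otx1 +5.7 kb was still lower (-0.63, adjusted p = 0.017). In that fit, 7 sites were called higher and 1 lower (68.7% of all sites were called). On pileups without centring, 10 were called higher and 0 lower (90.2%), and Otx1 +5.7 kb did not pass (0.15, adjusted p = 0.61). In the centred fit against activated NSPCs, 2 sites were called, the 5′ end of Lhx2 higher (0.87, SE 0.30, adjusted p = 0.040, with 7.66% of all sites higher) and Otx1 +5.7 kb lower (-1.19, SE 0.23, adjusted p = 0.0014, with 14.5% lower). Both contrasts share the reactivated libraries. The call at Otx1 +5.7 kb against activated NSPCs was lost on pileups without centring (-0.034, adjusted p = 0.91). The call at Lhx2 against activated NSPCs was lost when quiescent replicate 1 (adjusted p = 0.082), quiescent replicate 2 (0.078), activated replicate 1 (0.57) or either reactivated library (0.26 and 0.060) was left out, and with quantile normalization (0.064), the mean of the subpeaks (0.23) or pileups (0.074). Its difference was 0.25 without activated replicate 1 and 1.43 without activated replicate 2. Against quiescent NSPCs, the Lhx2 call was lost without quiescent replicate 2 (adjusted p = 0.051) and the Emx2 call without quiescent replicate 2 (0.16) or either reactivated library (0.14 and 0.10). With the mean of the subpeaks, Otx1 +1.2 kb against quiescent (0.068) and Otx1 +5.7 kb against activated NSPCs (0.050) did not pass, and the 2 sites called against activated NSPCs were other ones, Lhx2 +11.8 kb and Pax6 +47.1 kb.

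At the Otx1 +1.2 kb and Emx2 promoters, the values were lower only after centring, since fold enrichment itself overlapped between quiescent and reactivated NSPCs at the first and was higher in both reactivated than in both quiescent libraries at the second. Fold enrichment divides the pileup by the larger of the genome-wide and the local background, after 1 is added to each. At both promoters, pileup and local background were higher in reactivated than in quiescent NSPCs. At Otx1 +1.2 kb the pileup was 105 and 142 under quiescence, 110 and 81 under activation and 196 and 198 after reactivation, while the local background went from 12.3 and 17.8 to 24.6 and 23.2 reads. At the Emx2 promoter the pileup rose from 57 and 88 to 139 and 130 reads over a local background that rose from 10.5 and 15.0 to 22.0 and 19.1. At Otx1 +5.7 kb the pileup was 53 and 82, 66 and 45, and 53 and 57 reads, so the reactivated libraries lay within the range of the others.

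The fit was repeated on the pileup over the genome-wide background of the library, with 1 added to each, a scale chosen after the data were seen. On this scale, both reactivated libraries lay above the other 4 at 10 of the 11 sites, against 90.2% of all shared sites, and Otx1 +5.7 kb was the exception. Its ratio was 7.10 and 6.34 under quiescence, 8.89 and 6.56 under activation and 7.20 and 7.71 after reactivation, so the states overlapped, while the median shared site rose from log2 values of 2.75 and 2.58 to 4.06 and 4.03. Relative to that median, limma called Otx1 +5.7 kb lower in reactivated NSPCs (-1.23, SE 0.24, adjusted p = 8e-05 against quiescent; -1.14, SE 0.24, adjusted p = 0.00075 against activated, with 9.6% of all sites lower). The 5′ end of Lhx2 (1.12, SE 0.30, adjusted p = 0.0036) and the Pax6 promoter at +6.5 kb (0.65, SE 0.18, adjusted p = 0.0040) were higher than in quiescent NSPCs. For the Pax6 promoter the fit to fold enrichment gave the opposite sign (-0.31, SE 0.19, adjusted p = 0.20), so its direction depends on the scale. Emx2 +0.3 kb (adjusted p = 0.85) and Otx1 +1.2 kb (0.22) did not pass. Of all sites, 11.8% were called higher and 19.5% lower on this scale.

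Between activated and quiescent NSPCs, the pileup scale added 1 call, the Lhx2 promoter at +11.8 kb (0.54, SE 0.18, adjusted p = 0.029, with 8.1% of all sites higher). Its pileup was 69 and 130 reads in quiescent and 160 and 93 in activated NSPCs. Over the genome-wide background, with 1 added to each, this is 9.20 and 10.01 against 21.4 and 13.4. The Pax6 promoter was next (0.49, SE 0.18, adjusted p = 0.052). At 4 of the 11 sites both activated libraries lay above both quiescent ones (41.2% of all sites), and at 1, Pax6 +47.1 kb, both lay below (9.76%).

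**Figure D3:**
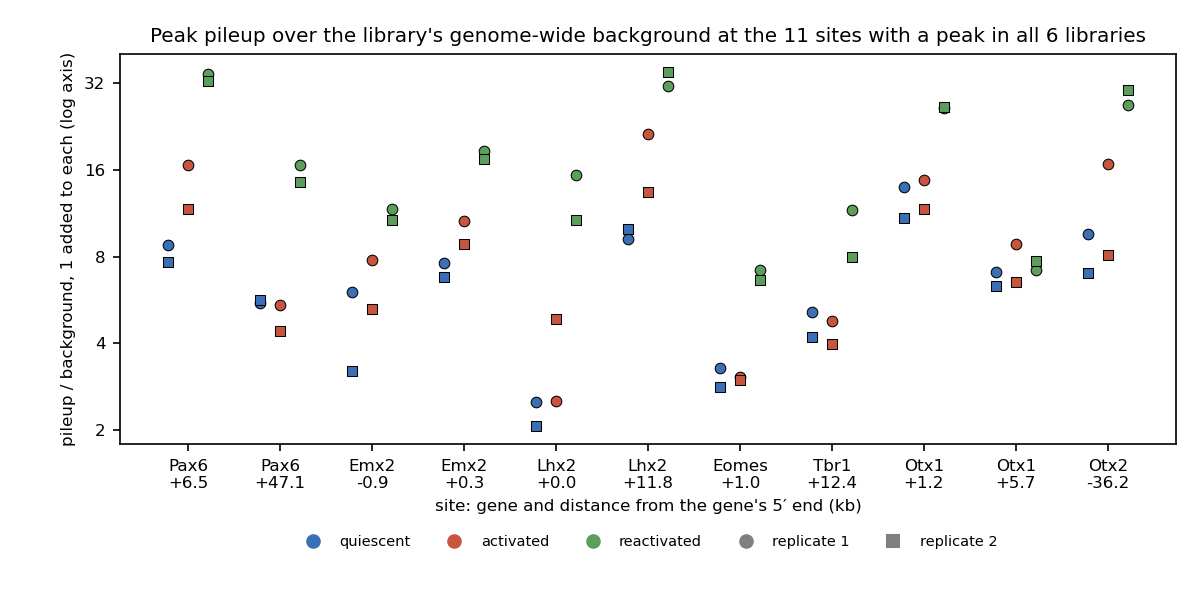
Highest pileup over the genome-wide background (1 added to each, log2-spaced y axis) at the 11 sites with a peak in all 6 libraries, with circles for replicate 1 and squares for replicate 2. Reactivated libraries (green) are the highest at every site except Otx1 +5.7 kb, where they lie at 7.20 and 7.71 among the others.

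**Figure D4:**
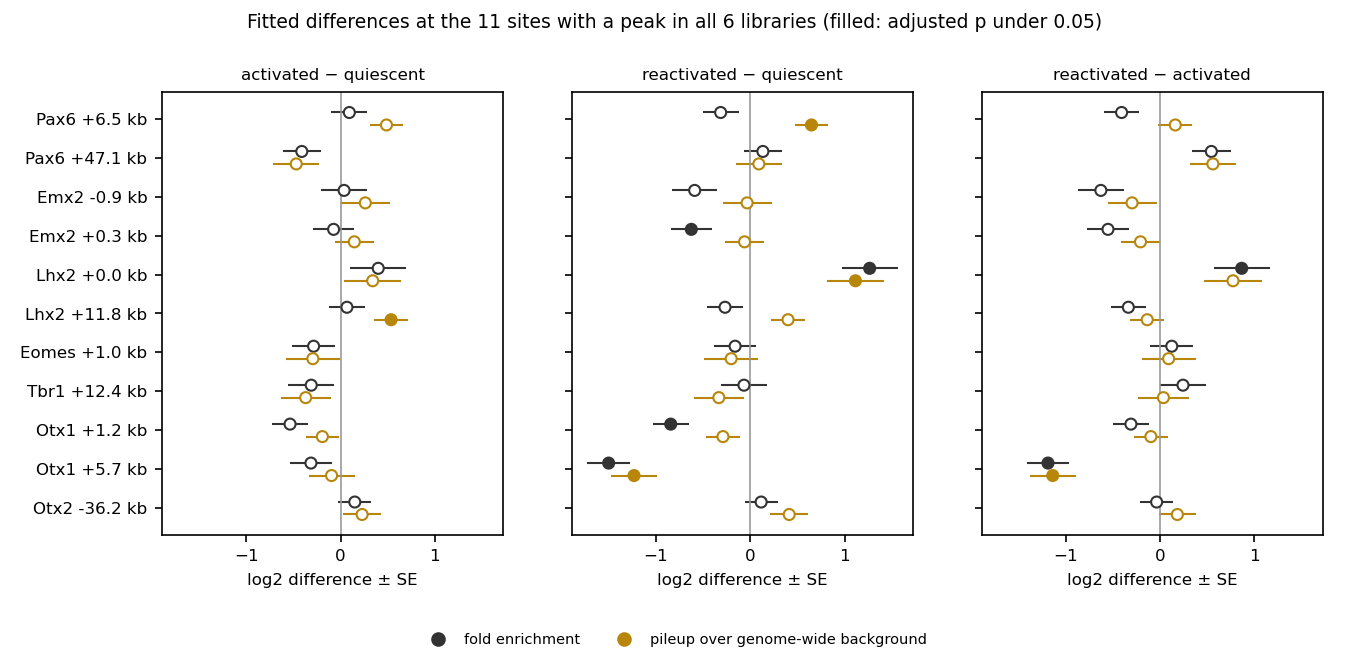
Differences fitted by limma (x axis, log2, with SE as bars) at the same 11 sites for the 3 contrasts, from fold enrichment (black) and from pileups (gold), filled where the adjusted p is under 0.05. Relative to the median shared site, Otx1 +5.7 kb is lower in reactivated NSPCs on both scales, and Emx2 +0.3 kb (-0.63) and Otx1 +1.2 kb (-0.84) are called from fold enrichment alone, with positive differences (0.25 and 0.030) if the libraries are not centred.

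H3K4me3 was found near all 8 genes in both states, in 13 peaks covering 26929 bp in quiescent and 12 peaks covering 23437 bp in activated NSPCs. With 1 library per state these are values without a test. The share of all protein-coding genes with an H3K4me3 peak in or near them, by the rule used for the 8 genes, was not computed. A peak near all 8 genes is therefore a description and not an excess over other genes. A promoter peak was present at 6 of the 8 genes in both states (60.6% and 59.4% of all protein-coding genes), and Tbr1 and Otx2 had none. Emx1 therefore had H3K4me3 at its promoter in quiescent NSPCs (fold enrichment 5.66, width 718 bp) and in activated NSPCs (5.52, 680 bp), while of these states ATAC-seq gave a promoter peak in the activated one alone. Both values were low in their lists, whose medians were 28.3.

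The broadest domains were at Otx1, Emx2 and Pax6. That of Otx1 was 5913 bp wide in quiescent and 5581 bp in activated NSPCs, wider than 98.7% and 98.8% of all peaks, at 30.3- and 31.3-fold. That of Emx2 was 5159 and 4769 bp wide, at 39.9- and 38.2-fold, and that of Pax6, around the internal TSSs, 4370 and 3410 bp, at 41.0- and 33.5-fold. Each was wider in the quiescent library, and over all 8 genes the covered length was the same or greater in quiescent NSPCs, whose list also held more peaks (17166 against 15962).

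Lhx2 had 2 separate promoter peaks, at its 5′ end (21.6-fold in quiescent and 25.3-fold in activated NSPCs, 1239 and 1111 bp) and around the internal TSSs, with its middle at +12.4 kb in quiescent NSPCs (40.4- and 30.3-fold, 2849 and 2918 bp). The 5′ end thus had an H3K4me3 peak in quiescent NSPCs where the ATAC-seq pileup, 18 and 26 reads, was next to the lowest called, 17 and 25. At Eomes, the promoter peak was 2130 bp wide and 16.4-fold enriched in quiescent NSPCs, and 1090 bp wide and 25.6-fold enriched in activated NSPCs. It was wider and lower in the first and narrower and higher in the second. Weak distal peaks lay at Eomes -24.3 kb (5.82 and 5.05), at the ATAC-seq site open in reactivated NSPCs alone, and at Otx1 -5.6 kb (9.05 and 9.12). A weak distal peak of Lhx2, at +8.9 kb in quiescent and +9.0 kb in activated NSPCs (3.44 and 4.52), overlapped no ATAC-seq site.

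For Tbr1 and Otx2, the H3K4me3 peak was distal and sat on the ATAC-seq site that was open in every state. At Tbr1 it was at +12.3 kb (5.83- and 5.12-fold, 438 and 331 bp). At Otx2 it was at -36.1 kb in quiescent and -36.2 kb in activated NSPCs (5.40- and 4.98-fold, 1150 bp in both), and it also reached the neighbouring ATAC-seq site at -37.1 kb, which had peaks in quiescent replicate 1 and both reactivated libraries. Both were weak beside the promoter peaks of Pax6 and Emx2.

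**Figure D5:**
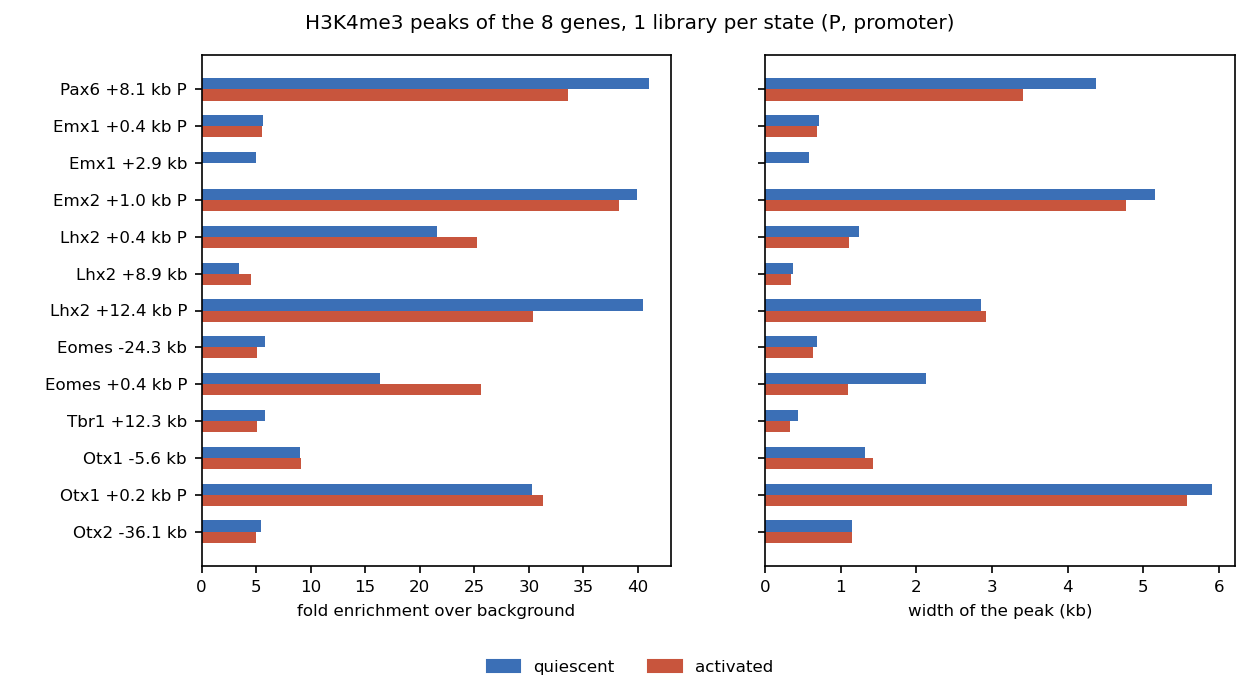
Fold enrichment (left) and width in kb (right) of the H3K4me3 peaks of the 8 genes in quiescent (blue) and activated (red) NSPCs, 1 library each, named by gene and distance of the peak's middle from the gene's 5′ end in the quiescent library (P, promoter). Otx1 has the widest peak in both states and Emx1 +2.9 kb the only peak found in 1 state.

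The 8 genes were set beside 20 other forebrain genes and 11 genes of caudal identity, such as En1, En2 and Gbx2 of the midbrain and hindbrain. The other forebrain genes had 162 sites, of which 27.2%, 29.6% and 56.2% were open in quiescent, activated and reactivated NSPCs, with 5 quiescent-specific (3.09%) and 12 activated-specific sites (7.41%), against 5.82% and 4.02% of all assigned sites. Of these 12, 4 lay at Fezf2, a factor of forebrain and subcortical projection neurons, and 3 at Bcl11b, which acts in the same neurons. The caudal genes had 113 sites, of which 12.4%, 10.6% and 51.3% were open, with 3 quiescent-specific (2.65%) and 2 activated-specific sites (1.77%). For the 8 genes the shares were 23.1%, 23.1% and 60%, between both lists in quiescent and activated NSPCs. limma called 1 site higher and 2 lower in activated NSPCs among 30 shared sites of the other forebrain genes (6.35% and 7.05% of all shared sites), and 0 of 8 for the caudal genes, where 1 had an unadjusted p under 0.05. Promoter peaks were at 9 and 9, 12 and 10, and 14 and 14 of the 20 other forebrain genes in quiescent, activated and reactivated libraries. For the 11 caudal genes the counts were 4 and 4, 5 and 4, and 8 and 8. No test between the lists was made.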

How the data were processed

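ATAC-seq peak lists of 6 libraries (2 each of quiescent, activated and reactivated NSPCs) and H3K4me3 peak lists of 2 libraries were used, and the 2 input libraries were not analysed here. Per the labels and the study's methods, the authors trimmed reads (Trim Galore 0.4.0), aligned them to mm10 (Bowtie2 2.2.5), removed duplicates (Picard 1.88, SAMtools 1.3.1) and called peaks per library with MACS. The threshold was an FDR of 0.05 for ATAC-seq. H3K4me3 was called against input as broad peaks (q of 0.05, broad cutoff 0.01, extension to 150 bp). The names of the reactivated peaks say that those libraries were downsampled. The fold enrichment that the authors deposited is a linear ratio of pileup to background, with 1 added to each, that carries no scaling between libraries. The −log10 p and −log10 q, also deposited, come from each library alone and increase with its depth. The deposited score was not used, and the summit (an offset in bases) located sequence windows.

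The members and gene lists were chosen with earlier results of these data known. Peaks on autosomes, X and Y were assigned with GENCODE M21, and sequences were read from GRCm38.p6, the same build. A site's gene was that of its peak with the highest percentile. limma 3.58.1 (R 4.3.3), with a trend, was fitted to log2 of the highest fold enrichment of each site in each library, with no pseudocount, over the sites with a peak in all 6 libraries, in 1 fit with 3 groups, a Benjamini-Hochberg adjustment over all sites and a threshold of 0.05. Pileups were recovered from fold enrichment and −log10 p, which a whole number of reads matched to within 0.02% for 100% of the peaks with a −log10 p up to 40. Sites named were, for each gene, all promoter sites, the state-specific sites, the shared site with the largest difference between activated and quiescent NSPCs, and up to 2 sites found in both reactivated libraries alone. All 4 such sites of Eomes, the limma calls in reactivated NSPCs and other sites given to show a gene's spread were added after their values were seen. Sequences were taken for up to 8 sites over 1 kb from any TSS with no exon in the window, at most 2 per gene, the state-specific ones first and then the others by mean percentile, and 6 of them are printed. Classes, pileup recovery and the limma fit were tested on simulated data, and gene assignment on a sample of real peaks against a brute-force search. Alternatives were stricter lists, lists of equal length, other windows, TSSs and merging, each library left out, quantile normalization, a replicate block, sites shared by the 4 quiescent and activated libraries and the mean of subpeaks; pileups and no centring were chosen after seeing the data. Analyses used Python 3.11.15, numpy 2.4.6, pandas 2.3.3, scipy 1.17.1 and samtools 1.23.1.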

Additional observations from a re-analysis of the deposited data

How the results depend on the processing

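With only peaks of a −log10 q of at least 10, 9 sites were open in quiescent and 8 in activated NSPCs, 1 was quiescent-specific, limma called 1 site (Otx1 +1.2 kb) in reactivated against quiescent and 0 against activated NSPCs, out of 5 fitted sites (33% and 19% of all fitted sites), and 7 H3K4me3 peaks were left in activated NSPCs. Lists of equal length left 14 sites open in reactivated NSPCs. A window of 25 kb left 1 activated-specific site, which was open in reactivated NSPCs. If 1 library was enough for a state, 9 sites were quiescent-specific and 15 activated-specific. Leaving out each ATAC-seq library in turn gave 15 to 25 open sites in quiescent and 15 to 26 in activated NSPCs, 2 to 7 quiescent-specific sites (0 to 2 of them open in reactivated NSPCs), 3 to 10 activated-specific sites (3 to 8), and limma calls of 0 to 1, 3 to 5 and 1 to 3 sites for activated against quiescent, reactivated against quiescent and reactivated against activated NSPCs (7.61% to 10.6%, 19.5% to 39.6% and 4.47% to 22.2% of all fitted sites). A call that needs both libraries of a state needs 1 when the other is left out, which by construction raises these counts. Apart from the limma calls and the open sites in lists of equal length, shares over all assigned sites were not computed under these settings. The other counts therefore describe how stable the values are and not a trait of the 8 genes.

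Among single log2 differences between activated and quiescent NSPCs, none of which passed the threshold, the sign turned at Otx2 -36.2 kb without quiescent replicate 2 (-0.027), without activated replicate 1 (-0.094; range over the left-out libraries -0.094 to 0.44) and with the mean of subpeaks (-0.17), at Emx2 +0.3 kb without quiescent replicate 2 (0.044; range -0.23 to 0.044), on pileups (0.15), without centring (0.15) and on pileups without centring (0.43), at Lhx2 0.0 kb without activated replicate 2 (-0.17; range -0.17 to 1.02), and at Otx1 +1.2 kb on pileups without centring (0.088). Without activated replicate 1 the Lhx2 site passed at 1.02. At Pax6 +47.1 kb the value without a library ranged from -0.84 to -0.35. In reactivated against quiescent NSPCs, the sign turned without centring at Otx1 +1.2 kb (0.030) and Emx2 +0.3 kb (0.25), and on pileups without centring at Otx1 +1.2 kb (1.10), Emx2 +0.3 kb (1.32) and Otx1 +5.7 kb (0.15, adjusted p = 0.61). Calls were 8 and 6 sites without centring for reactivated against quiescent and against activated NSPCs (68.7% and 53.1% of all sites), 1, 3 and 1 sites over the 3 contrasts on pileups (16.2%, 31.3% and 14.7%), and 2, 10 and 10 on pileups without centring (15.3%, 90.2% and 86.5%), all out of 11. Without centring, 7 of the 8 and 5 of the 6 were higher, and on pileups without centring every called site was higher. Against activated NSPCs, quantile normalization left 1 call (18.2% of all sites). The cause of these shifts was not tested. Centring takes away the rise of the median shared site in reactivated NSPCs.

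The replicate block gave 0, 4 and 2 calls, as without it, and changed no call. The numbers do not pair the libraries, with correlations of deviations of -0.0013, 0.0423 and -0.0173 between same-numbered libraries. Depth limits the weak sites, since no pileup under 16 reads was called in any library.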
